A study of Sus scrofa with 105 samples.

Results

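The miR-23, miR-27 and miR-24 families come from a pair of paralogous gene clusters, and their 8 porcine mature miRNAs were followed here in the brains of piglets after diffuse traumatic brain injury. Members were taken by name alone: 8 of the 448 mature miRNAs in the count table after repeated entries had been merged. In the RefSeq annotation of the pig assembly Sscrofa11.1, MIR23A, MIR27A and MIR24-1 neighbour each other, and MIR23B, MIR27B and MIR24-2 form the second cluster. The first cluster gives ssc-miR-23a, ssc-miR-27a and ssc-miR-24-1-5p. The second gives ssc-miR-23b, ssc-miR-27b-3p, ssc-miR-27b-5p and ssc-miR-24-2-5p. Both give ssc-miR-24-3p, whose reads cannot be assigned to a cluster. The numbering of the miR-24 genes is the reverse of the human one, where MIR24-2 lies with MIR23A.

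MicroRNAs guide Argonaute proteins to messenger RNAs with matching sites and so lower the output of those transcripts. The members of a cluster are cut from a shared primary transcript, but processing and decay of each hairpin can set their levels apart. In mice both clusters are known as endothelial miRNAs that act in vessel growth. In mouse neurons miR-23 and miR-27 are known to repress genes that promote cell death, among them Apaf1, and in human cells miR-24 represses regulators of the cell cycle.

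Small RNA had been sequenced from fixed, paraffin-embedded brain of female Sus scrofa piglets. There were 4 sets of animals, and 2 regions were taken, the hippocampus with the amygdala and the frontal lobe. Injured untreated animals killed at 1 day gave 10 libraries of each region. Injured animals treated with CsA, the calcineurin inhibitor cyclosporine A, gave 10 libraries of the hippocampus and amygdala and 9 of the frontal lobe. They had received 20 mg/kg per day into a vein, a loading dose 6 hours after injury and then an infusion of 24 hours, and survived 30 hours. Injured untreated animals at 1 week (6 to 8 days) gave 15 libraries of each region. Sham or naive untreated animals with a survival of 0 to 8 days gave 18 of each, and the labels do not say which of them were naive. The age of the animals and the way the injury was made are not stated in any source used here.

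Library totals lay between 98008 and 12703535 counts (median 7257404), and 3 sham libraries had under 1000000 counts. Median totals in the hippocampus and amygdala were 9223635 counts at 1 day, 9243072.5 with CsA, 6861927 at 1 week and 5365075 in sham animals. Those of the frontal lobe were 9866050, 8438371, 6816575 and 4679652 in the same order of groups, so depth moved with the groups. The let-7 family with miR-98 held most counts, 71.4% to 77.0% at 1 day and 74.1% to 83.9% in sham hippocampus and amygdala. In the frontal lobe its share was 73.3% to 77.8% at 1 day and 74.1% to 85.8% in sham animals. The 4 neural miRNAs checked (miR-124a, miR-9, miR-128 and miR-138) were above 0 in every library and summed to between 26831 and 47408 CPM (counts per 1000000 of the library total scaled by its TMM factor). The only liver marker checked, miR-122, did not exceed 187 CPM. The 4 skeletal muscle markers together did not exceed 279.3 CPM.

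All 8 members were present, but their abundance differed by orders of magnitude. In sham hippocampus and amygdala ssc-miR-24-3p ranked 52nd of 448 miRNAs by mean CPM, ssc-miR-23b 96th, ssc-miR-27b-3p 119th, ssc-miR-23a 137th, ssc-miR-27a 176th and ssc-miR-27b-5p 184th. The order of the means was the same in all 8 combinations of group and region. Levels between miRNAs are compared as CPM because mature miRNAs are of similar length, and the unequal capture of different miRNAs by library preparation was not corrected. The lowest pair was hardest to order: miR-27a exceeded miR-27b-5p in 13 of 18 sham libraries of the hippocampus and amygdala and in 14 of 18 of the frontal lobe. miR-23b exceeded miR-27b-3p in 17 of 18 frontal sham libraries. In the remaining neighbours of that order the first member was the higher one in every sham library of both regions.

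miR-24-3p alone made up 66.6% ± 2.63 of the counts of the 8 members in the hippocampus and amygdala at 1 day (SD, n = 10) and 70.9% ± 3.28 in sham animals (n = 18). Its share in the frontal lobe was 60.1% ± 3.46 at 1 day (n = 10) and 66.1% ± 6.34 in sham animals (n = 18). The second largest share belonged to miR-23b, with 20.9% ± 1.49 at 1 day and 17.9% ± 4.03 in sham frontal lobe. The members of the second cluster were the more abundant of each paralog pair. In sham libraries miR-23b counts were 3.14 times those of miR-23a in the hippocampus and amygdala and 4.14 times in the frontal lobe, as geometric means of 18 libraries. miR-27b-3p counts were 4.80 times and 5.66 times those of miR-27a in the same libraries. The sequences within each of these pairs are nearly identical, so the split of reads between them is uncertain.

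The passenger arms of miR-24 were close to the limit of detection. ssc-miR-24-2-5p had 213 counts over all 105 libraries, was above 0 in 63 of them and reached 17 counts at most. ssc-miR-24-1-5p had 62 counts, was above 0 in 34 libraries and reached 6 counts. One count of miR-24-2-5p stood for 4759 counts of miR-24-3p, and one of miR-24-1-5p for 16350. Neither arm passed the filter on low counts, so 6 of the 8 members were tested. At this depth these arms were too sparse to tell the clusters apart or to compare groups.

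**Figure D1:**
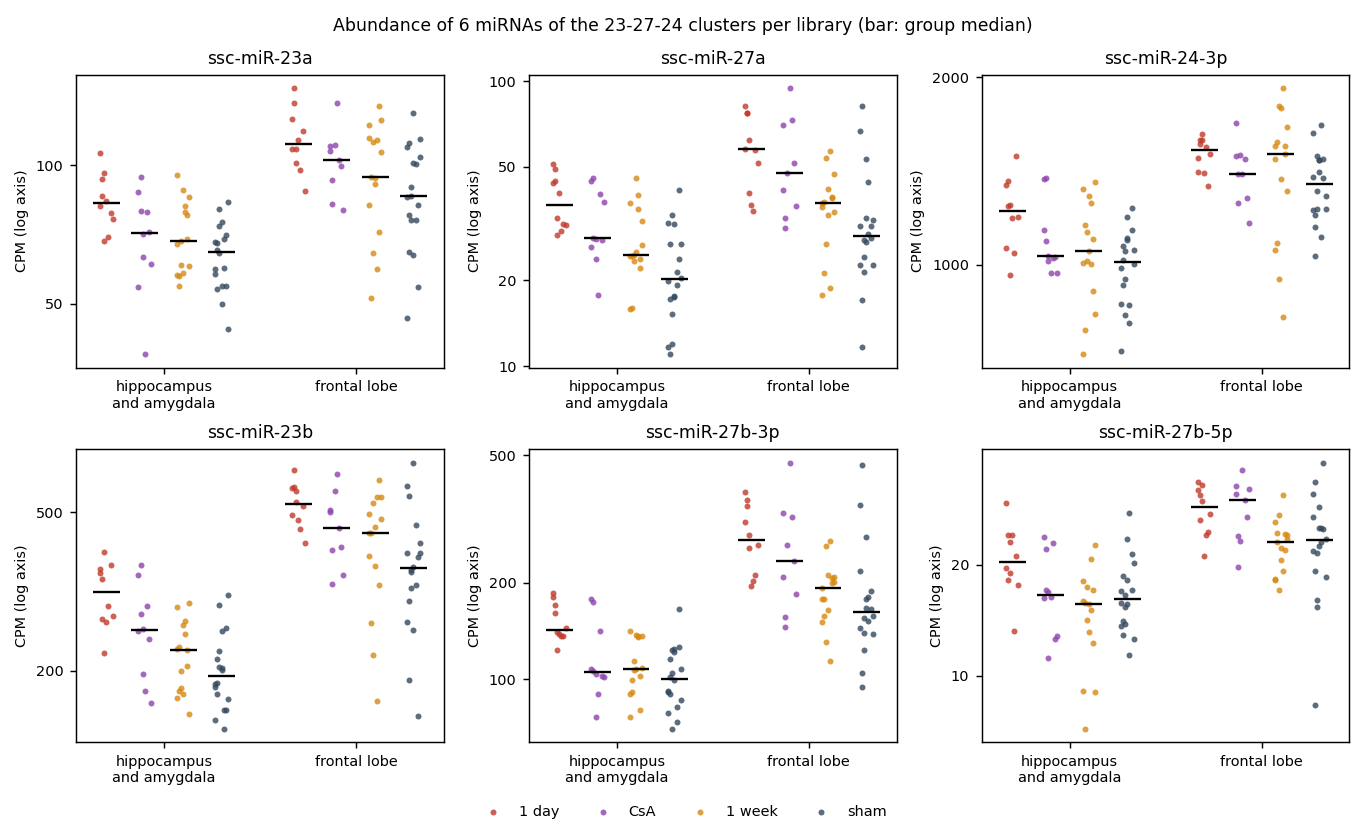
CPM of the 6 tested members in each library (points, log axis) by region and group, with the group median as a bar. All 10 libraries at 1 day lie above the sham median for miR-23a, miR-27a, miR-23b and miR-27b-3p in both regions. The group medians of the hippocampus and amygdala lie below those of the frontal lobe, but points of the regions overlap in part. CPM here are scaled within a region.

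The first comparison asks what diffuse injury had done to these miRNAs by 1 day. Both miR-27 genes and both miR-23 genes were higher at 1 day than in sham animals in each region, and miR-24-3p was higher in the hippocampus and amygdala. In the hippocampus and amygdala 5 of the 6 tested members were called higher and 0 lower, at an adjusted p under 0.05 in edgeR's quasi-likelihood test, where 28.3% of the 290 miRNAs tested were called higher. Of the 6, 4 were called higher and 0 lower in the frontal lobe, where 18.7% of 284 were called higher. Over all miRNAs tested, 59 of 290 in the hippocampus and amygdala and 74 of 284 in the frontal lobe were called lower. The median log2 fold change of the 6 was 0.47 in the hippocampus and amygdala (0.07 over all miRNAs tested) and 0.43 in the frontal lobe (-0.04 over all). DESeq2 called 5 of the 6 in the hippocampus and amygdala and 6 of the 6 in the frontal lobe, where it added miR-24-3p (adjusted p = 0.032) and miR-27b-5p (adjusted p = 0.031). It called 41.9% of 344 and 43.1% of 339 miRNAs in either direction in these regions. In bulk tissue, more RNA per cell and more cells of a type cannot be told apart.

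miR-27a had the largest fold change of the 6 in both regions. In the hippocampus and amygdala its lowest, median and highest levels were 28.9, 36.8 and 51.1 CPM at 1 day, against 11.0, 20.1 and 41.7 CPM in sham animals. In the frontal lobe they were 35.1, 57.6 and 81.6 CPM at 1 day, against 11.6, 28.7 and 81.6 CPM in sham animals. The lowest sham values rested on 10 counts in the hippocampus and amygdala and 7 counts in the frontal lobe. All 10 libraries at 1 day lay above the sham median in each region, and the groups overlapped, with 4 of 10 above the highest sham library in the hippocampus and amygdala and 1 of 10 in the frontal lobe. The log2 fold change was 0.77 (SE 0.17, edgeR adjusted p = 0.00033) in the hippocampus and amygdala and 0.76 (SE 0.21, adjusted p = 0.0033) in the frontal lobe.

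Its paralog miR-27b-3p, the main arm of the second miR-27 hairpin, moved in the same direction. The lowest, median and highest levels in the hippocampus and amygdala were 124, 142 and 186 CPM at 1 day, against 69.8, 100.4 and 165 CPM in sham animals. Frontal levels were 195, 272 and 383 CPM at 1 day, against 94.6, 162 and 465 CPM in sham animals, where the highest sham library exceeded all libraries at 1 day. The log2 fold change was 0.56 (SE 0.12, edgeR adjusted p = 0.00028) in the hippocampus and amygdala and 0.57 (SE 0.18, adjusted p = 0.0098) in the frontal lobe. The other arm of the same hairpin, miR-27b-5p, did not pass. Its median was 20.4 CPM at 1 day and 16.2 CPM in sham hippocampus and amygdala (log2 difference 0.33, SE 0.14, adjusted p = 0.054), and 28.7 CPM and 23.3 CPM in the frontal lobe (0.27, SE 0.13, adjusted p = 0.080).

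For miR-23b, the lowest, median and highest levels in the hippocampus and amygdala were 222, 315 and 398 CPM at 1 day, against 143, 194 and 310.1 CPM in sham animals. Frontal levels were 419, 524 and 639 CPM at 1 day, against 154, 361 and 667 CPM in sham animals. Every library at 1 day was above the sham median, 5 of 10 were above the sham maximum in the hippocampus and amygdala, and 0 of 10 in the frontal lobe. The log2 fold change was 0.62 (SE 0.12, edgeR adjusted p = 0.00012) in the hippocampus and amygdala and 0.48 (SE 0.16, adjusted p = 0.015) in the frontal lobe. miR-23a, its paralog in the first cluster, had smaller estimates. In the hippocampus and amygdala it had 0.39 (SE 0.11, edgeR adjusted p = 0.0030), with 68.4 to 106 CPM at 1 day and 44.2 to 83.1 CPM in sham animals. In the frontal lobe it had 0.37 (SE 0.13, edgeR adjusted p = 0.018), with 87.8 to 147 CPM at 1 day and 46.6 to 129.5 CPM in sham animals. The lowest of these frontal sham values rested on 3 counts, in a library with a total of 98008.

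miR-24-3p, the most abundant member, had the smallest fold change of the 6 in both regions. Its lowest, median and highest levels were 965, 1220 and 1496 CPM at 1 day, against 728, 1012 and 1233 CPM in sham hippocampus and amygdala (log2 fold change 0.29, SE 0.09, edgeR adjusted p = 0.0063). Frontal levels were 1341, 1527 and 1624 CPM at 1 day, against 1033, 1347 and 1675 CPM in sham animals (0.16, SE 0.09, adjusted p = 0.14). That the 2 regions fall on either side of the threshold does not show that they differ. In the interaction of region with group, fitted over the 52 animals with both regions, its estimate was 0.08 (SE 0.08, adjusted p = 0.92), and 0% of 298 miRNAs passed. For the 6 members these interaction estimates, hippocampus and amygdala minus frontal lobe, lay between -0.11 and 0.08. At an unadjusted p under 0.05, 9 of the 298 passed in edgeR, and DESeq2 called 0 of 370 with an adjusted p.

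**Figure D2:**
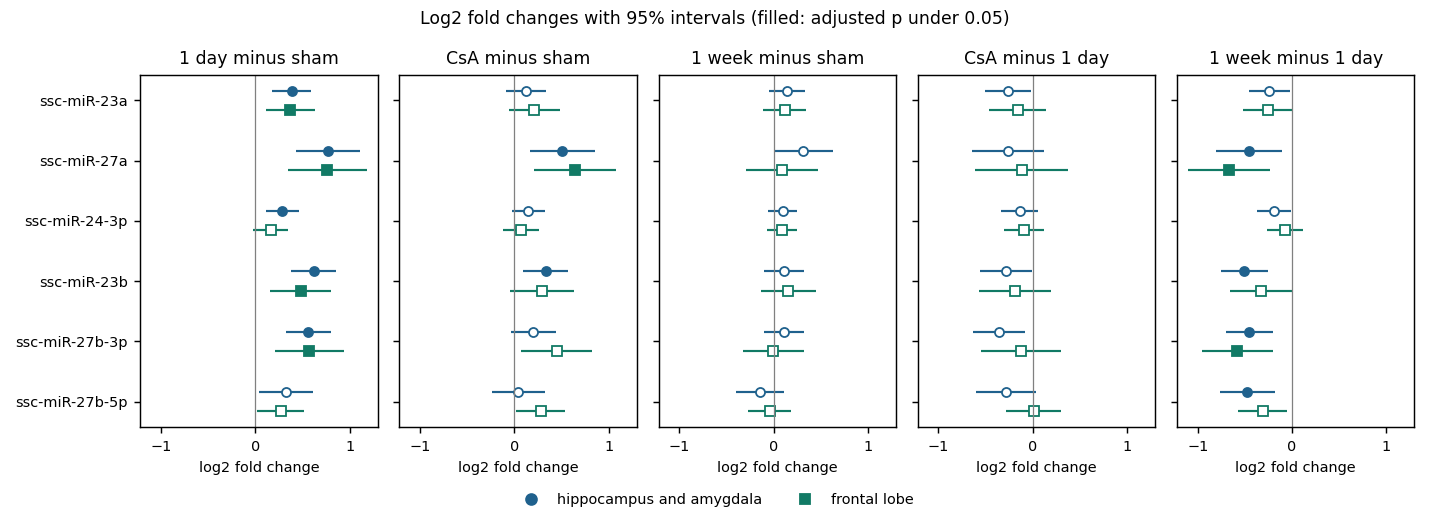
Log2 fold changes of the 6 tested members (points) with 95% intervals (lines) in 5 comparisons, circles for the hippocampus and amygdala and squares for the frontal lobe, filled where the adjusted p is under 0.05. In 1 day minus sham all 12 estimates are above 0 and 9 are filled, whereas in CsA minus 1 day and in 1 week minus sham no symbol is filled.

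Animals fall into sets by their codes. The codes in the library names begin with different digits, whose meaning is not given, and 1 day animals have codes beginning 11 (5 animals) or 12 or 13 (5 animals). Among animals with codes beginning 11 (5 at 1 day, 6 sham), the log2 fold change of miR-27a was 1.25 (SE 0.24, edgeR adjusted p = 0.0014) in the hippocampus and amygdala and 1.10 (SE 0.28, adjusted p = 0.0081) in the frontal lobe. That of miR-27b-3p was 0.79 (SE 0.16, adjusted p = 0.0014) and 0.96 (SE 0.19, adjusted p = 0.0080) in the same regions. Of all miRNAs tested in this set, 38.6% of 290 and 32.4% of 281 were called in either direction in these regions. Among animals with codes beginning 12 or 13 (5 at 1 day, 5 sham), miR-27a had 0.27 (SE 0.24) in the hippocampus and amygdala and 0.30 (SE 0.30) in the frontal lobe, and none of the 6 members was called in either region, as none of all miRNAs tested was. All 12 estimates were above 0 in both sets of animals. Among codes beginning 11, frontal totals ran from 678907 to 5057795 counts in sham animals and from 5707853 to 12008130 at 1 day. Those of the hippocampus and amygdala ran from 1163451 to 6280320 and from 6873410 to 9529224. Among codes beginning 12 or 13 the ranges overlapped, with frontal totals of 4113777 to 12703535 and 8374349 to 11220476. Totals of the hippocampus and amygdala there ran from 5438351 to 9841841 and from 7474699 to 11470305. Whether the 2 sets differ was not tested.

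Library total also moved with the groups. With its log10 in the fit, 3 of the 6 members were called higher at 1 day in the hippocampus and amygdala: miR-27a (log2 fold change 0.55, SE 0.18, edgeR adjusted p = 0.022), miR-27b-3p (0.48, SE 0.13, adjusted p = 0.0097) and miR-23b (0.44, SE 0.12, adjusted p = 0.0097). Frontal calls numbered 0 of the 6. In each region 19.7% of all miRNAs tested were then called in either direction. The frontal estimate of miR-27a was then 0.38 (SE 0.20, adjusted p = 0.17) and that of miR-27b-3p 0.37 (SE 0.18, adjusted p = 0.16). Within the 18 sham animals alone, the level of miR-23b in the hippocampus and amygdala followed the total with Spearman's rho 0.67 (permutation p = 0.0031, adjusted over 12 relations 0.037) and Pearson's r 0.56 (p = 0.013, adjusted 0.080). Without the 2 animals farthest from the median total, r was 0.52. None of the other 11 relations passed after adjustment by either measure. Depth and injury cannot be told apart in full in these libraries.

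**Figure D3:**
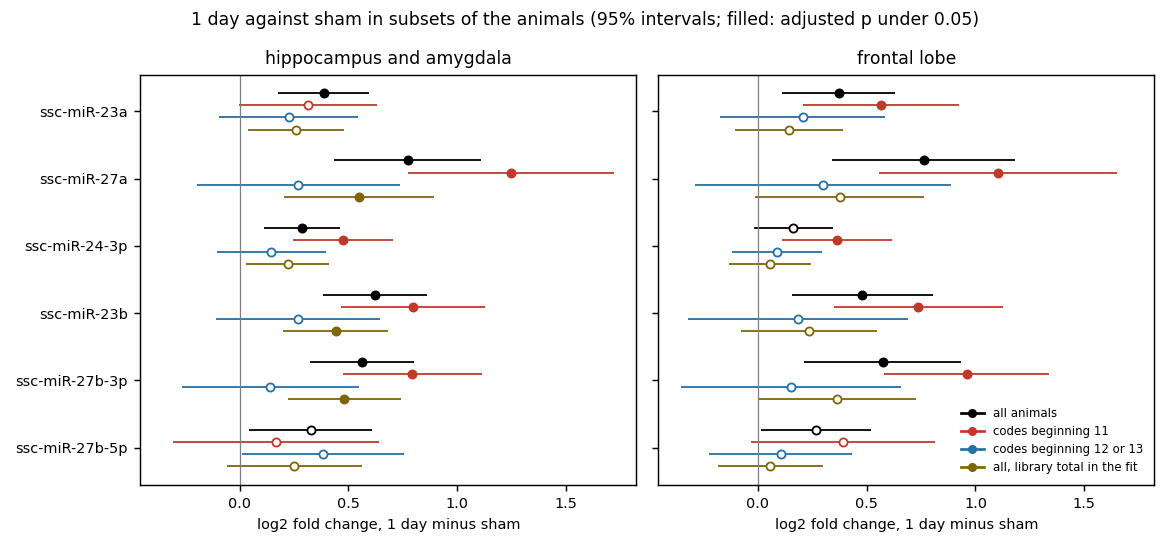
Log2 fold change, 1 day minus sham, of the 6 tested members (points) with 95% intervals (lines) in all animals, in animals with codes beginning 11, in those with codes beginning 12 or 13, and in all animals with library total in the fit, filled where the adjusted p is under 0.05. The miR-27a point for codes beginning 11 lies at 1.25 in the hippocampus and amygdala and that for codes beginning 12 or 13 at 0.27.

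Animals given CsA and killed at 30 hours were set against sham animals. miR-27a was higher in both regions, and miR-23b passed narrowly in the hippocampus and amygdala. In the hippocampus and amygdala 2 of the 6 were called higher and 0 lower, where 11.0% of 290 miRNAs were called higher. Of the 6, 1 was called higher and 0 lower in the frontal lobe, where 14.8% of 284 were. The sham animals are the same as in the comparison at 1 day, so the 2 comparisons are not independent.

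The lowest, median and highest miR-27a levels were 17.7, 28.1 and 45.7 CPM with CsA in the hippocampus and amygdala and 30.5, 47.7 and 94.7 CPM with CsA in the frontal lobe, beside the sham values given above. Of the CsA libraries, 9 of 10 and 9 of 9 in these regions lay above the sham median. The log2 fold change was 0.51 (SE 0.17, edgeR adjusted p = 0.032) in the hippocampus and amygdala and 0.65 (SE 0.22, adjusted p = 0.021) in the frontal lobe. miR-23b had 0.33 (SE 0.12, adjusted p = 0.048) in the hippocampus and amygdala, with levels of 165, 253 and 369 CPM with CsA, and 0.29 (SE 0.17, adjusted p = 0.17) in the frontal lobe, with 330.4, 456 and 626 CPM. miR-27b-3p, the second miR-27, had 0.20 (SE 0.12, adjusted p = 0.24) in the hippocampus and amygdala and 0.45 (SE 0.19, adjusted p = 0.063) in the frontal lobe. The estimates of miR-23a, miR-24-3p and miR-27b-5p lay between 0.04 and 0.28, and none passed.

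These calls depended on single libraries. The miR-23b call in the hippocampus and amygdala held in 28 of 53 fits that left out 1 library each, and its adjusted p ran from 0.017 to 0.14. The miR-27a call held in 48 of 53 in that region and in 49 of 52 in the frontal lobe. With library total in the fit, 0 of the 6 members were called in either region. Of all miRNAs tested, 0.690% of 290 in the hippocampus and amygdala and 7.04% of 284 in the frontal lobe were then called. In the animals with codes beginning 12 or 13, 0 of the 6 members were called, as 0 of all miRNAs tested were.

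CsA animals were next set against untreated injured animals at 1 day, which asks whether the drug changed the levels, although the groups also differ by hours of survival. No member was called: 0 of 6 in each region, as 0% of 290 miRNAs in the hippocampus and amygdala and 0% of 284 in the frontal lobe passed in edgeR. At an unadjusted p under 0.05, 69 miRNAs passed in the hippocampus and amygdala and 12 in the frontal lobe. DESeq2 called 13 of 68 and 0 of 360 miRNAs to which it gave an adjusted p in these regions. It gave miR-24-3p, which was not called, an adjusted p and gave none to the other 5 members in the hippocampus and amygdala.

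All 6 estimates were below 0 in the hippocampus and amygdala, with a median of -0.27 (-0.04 over all miRNAs tested). miR-27b-3p had the lowest, -0.36 with a 95% interval of -0.63 to -0.09 (edgeR adjusted p = 0.13). Its lowest, median and highest levels were 76.2, 105 and 178 CPM with CsA, against 124, 142 and 186 CPM at 1 day, and 7 of 10 CsA libraries lay below the lowest library at 1 day. miR-27a was at -0.26 (interval -0.65 to 0.12) in that region and at -0.12 (interval -0.61 to 0.38) in the frontal lobe. In the frontal lobe the median estimate of the 6 was -0.12 (0.07 over all miRNAs tested), and miR-27b-5p, at 0.01, was the only one above 0. Lack of a call at this spread does not show that CsA left these miRNAs alone.

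At 1 week no member was called different from sham animals. Of the 6, 0 were called in either region, where 0.345% of 290 miRNAs passed in the hippocampus and amygdala and 0% of 284 in the frontal lobe. At an unadjusted p under 0.05, 15 and 19 miRNAs passed in edgeR in these regions, and DESeq2 called 3 and 1. The median log2 fold change of the 6 was 0.11 in the hippocampus and amygdala and 0.09 in the frontal lobe. The highest was that of miR-27a in the hippocampus and amygdala, 0.32 (SE 0.16, adjusted p = 0.74), with 15.8, 24.5 and 45.9 CPM at 1 week as lowest, median and highest, against 11.0, 20.1 and 41.7 CPM in sham animals.

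Calls did appear in 1 set of animals. Among animals with codes beginning 14 to 17 (9 at 1 week, 6 sham), 3 members were called higher at 1 week in the frontal lobe: miR-27a (log2 fold change 0.66, SE 0.15, edgeR adjusted p = 0.0038), miR-23b (0.45, SE 0.12, adjusted p = 0.011) and miR-27b-3p (0.40, SE 0.13, adjusted p = 0.031). In these animals 23.7% of all frontal miRNAs tested were called in either direction. Their frontal totals ran from 3817825 to 7453037 counts in sham animals and from 5942739 to 11305735 at 1 week. Codes beginning 16 occurred only in sham animals, and those beginning 15 or 17 only at 1 week. Over all animals miR-27b-3p had -0.00 (SE 0.17). Among codes beginning 10 or 11 (6 at 1 week, 7 sham) 0 of the 6 members were called, and miR-27a had 0.10 (SE 0.28) in the frontal lobe. No set of codes gave a call of a member in the hippocampus and amygdala in this comparison.

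Set against 1 day, both miR-27 genes were lower at 1 week in each region. In the hippocampus and amygdala 4 of the 6 members were called lower and 0 higher, where 17.6% of 290 miRNAs were called lower. They were miR-23b (log2 fold change -0.51, SE 0.13, edgeR adjusted p = 0.0030), miR-27b-3p (-0.45, SE 0.13, adjusted p = 0.0057), miR-27b-5p (-0.47, SE 0.15, adjusted p = 0.012) and miR-27a (-0.46, SE 0.18, adjusted p = 0.046). In the frontal lobe 2 of the 6 were called lower and 0 higher, where 12.7% of 284 were called lower: miR-27a (-0.67, SE 0.22, adjusted p = 0.016) and miR-27b-3p (-0.58, SE 0.19, adjusted p = 0.016).

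All 15 libraries at 1 week lay below the median at 1 day for miR-27b-3p in both regions. Its lowest, median and highest levels in the hippocampus and amygdala were 76.0, 108 and 142 CPM at 1 week, against 124, 142 and 186 CPM at 1 day, and 10 of 15 libraries at 1 week lay below the lowest at 1 day. In the frontal lobe it had 114, 193 and 270.0 CPM at 1 week, against 195, 272 and 383 CPM at 1 day, with 8 of 15 below the lowest. The miR-27a call in the hippocampus and amygdala held in 25 of 53 fits that left out 1 library each and not in DESeq2 (adjusted p = 0.058), and that of miR-27b-5p held in 52 of 53. miR-27b-5p had 7.15, 15.6 and 22.6 CPM at 1 week in the hippocampus and amygdala, against 13.2, 20.4 and 29.4 CPM at 1 day. miR-24-3p moved least, with estimates of -0.19 (SE 0.09, edgeR adjusted p = 0.094) and -0.07 (SE 0.10, adjusted p = 0.54) in the hippocampus and amygdala and in the frontal lobe. Among animals with codes beginning 11 (4 at 1 week, 5 at 1 day) none of the members, and none of all miRNAs tested, was called in this comparison, with miR-27a at -0.55 (SE 0.26) and -0.78 (SE 0.31) in these regions.

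The same animals gave both regions, which allows a comparison within animals. All 6 tested members were lower in the hippocampus and amygdala than in the frontal lobe of the same animals, in every group. The share of 298 miRNAs called lower was 21.5% at 1 day, 28.2% with CsA, 21.8% at 1 week and 25.5% in sham animals. miR-27b-3p was lower in the hippocampus and amygdala in 52 of 52 animals, miR-23b and miR-24-3p in 51, miR-27b-5p in 50, miR-23a in 47 and miR-27a in 43. Over all miRNAs the median log2 difference lay between -0.01 and 0.02 in the 4 groups.

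miR-27b-3p and miR-23b, neighbours in the second cluster, had the largest differences. miR-27b-3p was lower by a log2 difference of -0.97 (SE 0.14, edgeR adjusted p = 1.2e-07) at 1 day, -1.16 (SE 0.15, adjusted p = 3.4e-09) with CsA, -0.82 (SE 0.11, adjusted p = 1.9e-08) at 1 week and -0.86 (SE 0.10, adjusted p = 5.0e-10) in sham animals. Across the 18 sham animals its differences ran from -1.66 to -0.36 with a median of -0.79. miR-23b had -0.86 (SE 0.13), -0.93 (SE 0.13), -0.93 (SE 0.10) and -0.91 (SE 0.10) in the same order of groups, and 1 sham animal of 18 had the opposite sign, at 0.79.

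miR-24-3p had the narrowest spread between animals. Its difference was -0.42 (SE 0.07) at 1 day, -0.39 (SE 0.07) with CsA, -0.47 (SE 0.06) at 1 week and -0.50 (SE 0.05, edgeR adjusted p = 6.4e-12) in sham animals, and all 18 sham animals lay between -0.88 and -0.11. miR-27a varied more, from -1.34 to 0.61 among sham animals, with a difference of -0.64 (SE 0.14, adjusted p = 0.00017) there and -0.43 (SE 0.15, adjusted p = 0.015) at 1 week. miR-23a had between -0.64 and -0.47 and miR-27b-5p between -0.84 and -0.55 over the 4 groups, all called. The interactions of region with CsA and with 1 week, each against sham, called 0% of 298 miRNAs, and so did that with 1 day. Unadjusted p was under 0.05 for 73 miRNAs in the CsA interaction and for 8 in that at 1 week. DESeq2 called 29 of 198 and 0 of 370, none of them a member.

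**Figure D4:**
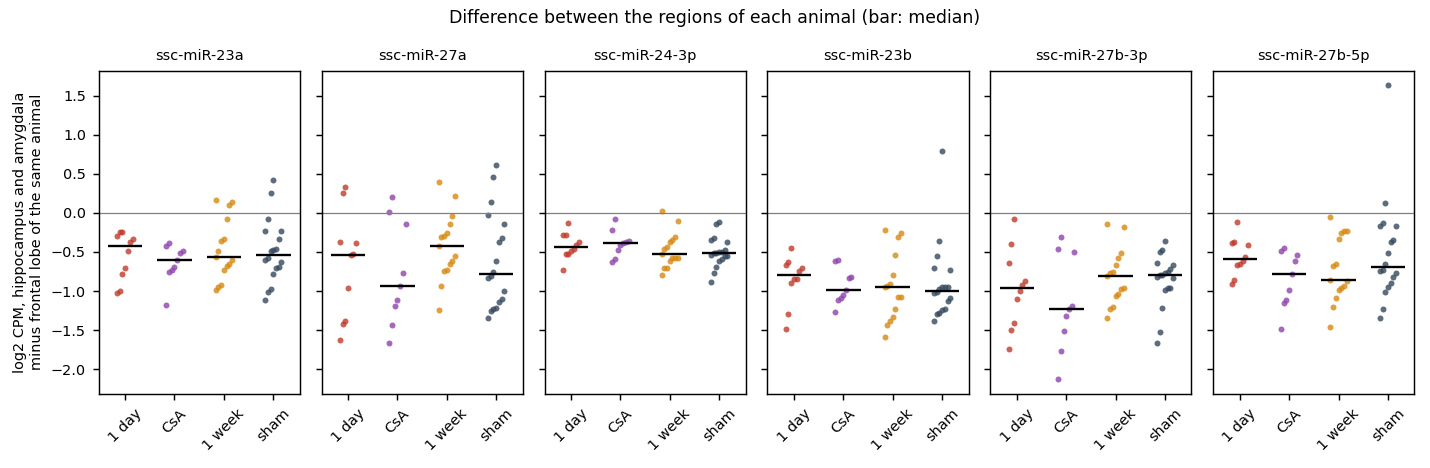
Log2 CPM in the hippocampus and amygdala minus that in the frontal lobe of the same animal (points) for the 6 tested members by group, with the median as a bar and a grey line at 0. All 52 animals lie below 0 for miR-27b-3p and 51 of 52 for miR-24-3p, while 43 of 52 do for miR-27a.

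Ratios between members need no scaling of libraries and ask whether the clusters moved together. They were taken within each library on counts plus 0.5. Over 4 ratios, 5 comparisons and 2 regions, 0 of 40 permutation tests passed after adjustment. The smallest p was that of miR-23a over miR-23b at 1 week against 1 day in the hippocampus and amygdala, where the mean log2 ratio was -1.63 ± 0.16 at 1 week (SD, n = 15) and -1.89 ± 0.20 at 1 day (n = 10), a difference of 0.26 (permutation p = 0.0017, adjusted 0.066). In the same region this ratio had a difference of -0.24 for 1 day minus sham (permutation p = 0.014, adjusted 0.13). For CsA minus sham it was -0.22 (permutation p = 0.030, adjusted 0.15). The frontal differences were -0.15 (permutation p = 0.089, adjusted 0.30) and -0.11 (exact permutation p = 0.25, adjusted 0.56). The mean log2 ratio of miR-27a over miR-27b-3p differed by 0.26 between 1 day and sham in the hippocampus and amygdala (permutation p = 0.10, adjusted 0.31). Its medians were close, -1.99 at 1 day and -2.04 in sham animals, and the lowest sham library was at -3.33. Only the miR-23 and miR-27 ratios compare the clusters, since the miR-27b arms share a hairpin and the miR-24 arms were too sparse. The tests of these ratios were not adjusted by themselves. No difference between the clusters in their change between groups passed the adjustment over 40 tests, which does not show that the clusters moved together.

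Between regions the ratios did differ. This comparison was added after the data had been seen, with exact sign-flip permutation tests within animals adjusted over 16. The log2 ratio of miR-23a over miR-23b was higher in the hippocampus and amygdala by 0.31 ± 0.22 at 1 day (SD, n = 10, 9 of 10 animals, exact permutation adjusted p = 0.016). The difference was 0.29 ± 0.24 with CsA (n = 9, 7 of 9 animals, exact adjusted p = 0.042), 0.47 ± 0.21 at 1 week (n = 15, 15 of 15, exact adjusted p = 0.00098) and 0.40 ± 0.33 in sham animals (n = 18, 16 of 18, exact adjusted p = 0.0015). Thus miR-23b differed between regions by more than miR-23a in all 4 groups.

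The miR-27 pair showed the same sign. The log2 ratio of miR-27a over miR-27b-3p was higher in the hippocampus and amygdala by 0.30 ± 0.34 at 1 day (n = 10, 8 of 10 animals, exact permutation adjusted p = 0.045), 0.37 ± 0.24 with CsA (n = 9, 8 of 9, exact adjusted p = 0.025) and 0.39 ± 0.29 at 1 week (n = 15, 13 of 15, exact adjusted p = 0.0020). In sham animals it was 0.24 ± 0.53 (n = 18, 12 of 18, exact adjusted p = 0.11), which did not pass. Between the arms of the miR-27b hairpin, miR-27b-5p over miR-27b-3p was higher by 0.41 ± 0.43 at 1 day (n = 10, exact adjusted p = 0.043) and by 0.34 ± 0.59 in sham animals (n = 18, exact adjusted p = 0.043), and did not pass with CsA or at 1 week. The ratio of the miR-24 passenger arms rested mostly on counts of 0 and did not pass in any group.

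**Figure D5:**
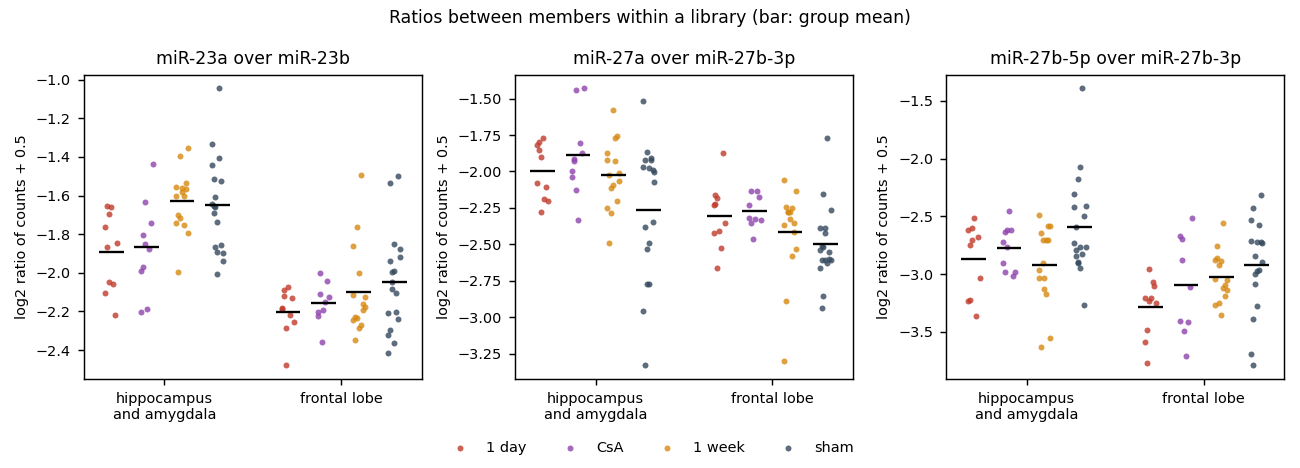
Log2 ratio of counts plus 0.5 between members of each library (points) by region and group, with the group mean as a bar. The miR-23a over miR-23b means lie between -1.89 and -1.63 in the hippocampus and amygdala and between -2.20 and -2.05 in the frontal lobe.

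Levels of the members were also compared across libraries of 1 region after group means had been taken off, as Spearman's rho of log2 CPM averaged over the regions (52 and 53 libraries). These values are descriptions, since all libraries share depth and scaling. Each paralog was the nearest of 279 others to its partner: miR-23a and miR-23b had 0.84, and miR-27a and miR-27b-3p had 0.73. The near-identical sequences of a pair may share reads. Neighbours in a cluster were less alike, with 0.58 for miR-23a and miR-27a and 0.64 for miR-23b and miR-27b-3p. The arms of the miR-27b hairpin had 0.62.

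Outside the clusters, miR-24-3p was most like miR-103 (0.80), miR-107 (0.75) and miR-151-3p (0.68). The nearest others of miR-23b were miR-15b (0.72), miR-885-5p (0.71) and miR-130b-3p (0.71), and those of miR-23a were miR-30b-5p (0.69), miR-186-5p (0.69) and miR-130b-3p (0.68). miR-27a was followed by miR-30b-5p (0.72), miR-130a (0.71) and miR-30e-5p (0.71), and miR-27b-3p by miR-9-1 (0.71), miR-30e-5p (0.70) and miR-130a (0.69). miR-27b-5p had weaker partners, with miR-16 at 0.56, miR-9-1 at 0.56 and let-7g at 0.52.

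Related miRNAs are given as lists with counts and medians only, and lists overlap: miR-143-3p is in the vascular and the glia-associated list and is a mural marker too. Of 12 vascular miRNAs, all of which passed the filter in the hippocampus and amygdala and 11 in the frontal lobe, 5 and 4 were called higher at 1 day than in sham animals in these regions and 0 lower. Of all miRNAs tested, 28.3% of 290 and 18.7% of 284 were called higher in these regions, and 59 and 74 were called lower. The list's median log2 fold change was 0.32 in the hippocampus and amygdala (0.07 over all miRNAs tested) and 0.11 in the frontal lobe (-0.04 over all). The smallest p in the hippocampus and amygdala belonged to miR-126-3p, an endothelial miRNA (0.41, SE 0.09, edgeR adjusted p = 0.00020), and miR-199a-3p (0.64, SE 0.15, adjusted p = 0.00064). Those of the frontal lobe were miR-130a (0.54, SE 0.11, adjusted p = 0.00013) and again miR-199a-3p (0.57, SE 0.18, adjusted p = 0.0098). With CsA against sham, 1 of 12 and 3 of 11 were called higher in these regions and 0 lower, where 11.0% and 14.8% of all miRNAs tested were called higher, among them miR-92a in the hippocampus and amygdala (0.42, SE 0.14, adjusted p = 0.025) and miR-130a (0.42, SE 0.12, adjusted p = 0.0062) and miR-143-3p (0.54, SE 0.15, adjusted p = 0.0062) in the frontal lobe. miR-222, next by p in the hippocampus and amygdala, had 0.27 (adjusted p = 0.082).

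Of 12 glia-associated miRNAs, 3 were called higher at 1 day in each region, with 0 lower in the hippocampus and amygdala and 1 lower in the frontal lobe. These counts are near the shares of 28.3% and 18.7% called higher over all miRNAs tested. The list's median was 0.14 in the hippocampus and amygdala and 0.05 in the frontal lobe. miR-181a (log2 fold change 0.54, SE 0.15, edgeR adjusted p = 0.0025) and miR-21-5p (0.43, SE 0.13, adjusted p = 0.0044) led in the hippocampus and amygdala, and miR-29a-3p (0.38, SE 0.10, adjusted p = 0.0018) and miR-143-3p (0.38, SE 0.15, adjusted p = 0.027) in the frontal lobe. With CsA against sham, 1 was higher and 1 lower in the hippocampus and amygdala, miR-181a (0.41, adjusted p = 0.038) and miR-338 (-0.44, adjusted p = 0.015), and 2 were higher in the frontal lobe, miR-29a-3p (0.40, adjusted p = 0.0043) and miR-143-3p.

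Of 13 miRNAs associated with apoptosis, 4 in the hippocampus and amygdala and 5 in the frontal lobe were called higher at 1 day and 1 lower in each. The first count is near the 28.3% called higher over all miRNAs of that region, and the frontal share over all was 18.7%. The list's median was 0.17 in the hippocampus and amygdala and 0.20 in the frontal lobe. miR-107 was higher in both regions (log2 fold change 0.56, SE 0.11, edgeR adjusted p = 0.00016, and 0.59, SE 0.12, adjusted p = 0.00018), miR-16 had 0.39 (SE 0.07, adjusted p = 0.00010) in the hippocampus and amygdala, and miR-22-3p was lower in the frontal lobe (-0.56, SE 0.10, adjusted p = 3.5e-05). With CsA against sham, 2 and 3 of the 13 were higher and 1 lower in the hippocampus and amygdala and in the frontal lobe. miR-15b was higher (0.60, SE 0.14, adjusted p = 0.0036, and 0.45, SE 0.13, adjusted p = 0.0070) and miR-22-3p lower (-0.32, SE 0.09, adjusted p = 0.011, and -0.47, SE 0.11, adjusted p = 0.0013) in both.

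In the 3 lists 0 were called for CsA against 1 day or for 1 week against sham in either region. For 1 week against 1 day, 0 vascular miRNAs were higher and 5 lower in the hippocampus and amygdala, and 2 were higher and 2 lower in the frontal lobe. The glia-associated list then had 0 higher and 1 lower in each region, and the apoptosis list had 1 higher in each, with 4 lower in the hippocampus and amygdala and 5 in the frontal lobe. Over all miRNAs tested 17.6% and 12.7% were called lower in these regions. In sham animals the hippocampus and amygdala had 1 vascular miRNA higher and 4 lower than the frontal lobe, 0 and 6 of the glia-associated list, and 0 and 8 of the apoptosis list, where 25.5% of all miRNAs tested were called lower.

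Markers of other cell types are given beside these results, and the following shares hold for all of them. At 1 day against sham, 28.3% of 290 miRNAs in the hippocampus and amygdala and 18.7% of 284 in the frontal lobe were called higher. Called lower were 59 and 74 of these. With CsA against sham 11.0% and 14.8% were called higher. At 1 week against 1 day 17.6% and 12.7% were called lower. Between the regions of sham animals 25.5% of 298 were called lower. The summed level of the endothelial pair miR-126-3p and miR-126-5p ran from 4744 to 7370 CPM at 1 day and from 3374 to 5624 CPM in sham hippocampus and amygdala, and from 5481 to 7927 CPM and 3172 to 7618 CPM in the frontal lobe. Of this pair, 2 in the hippocampus and amygdala and 1 in the frontal lobe were called higher at 1 day. With CsA its sum ran from 4060 to 5350 CPM in the hippocampus and amygdala, where 0 were called against sham, and from 5037 to 8419 CPM in the frontal lobe, where 1 was called higher. At 1 week against 1 day, 2 of the pair were called lower in the hippocampus and amygdala and 0 in the frontal lobe. Both were called lower in the hippocampus and amygdala than in the frontal lobe of sham animals.

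The mural markers miR-143-3p and miR-145-5p were also both called lower in the hippocampus and amygdala than in the frontal lobe of sham animals. At 1 day against sham, 0 of 2 were called in the hippocampus and amygdala and 1 was higher in the frontal lobe, with a median of 0.12 in each. At 1 week against 1 day 0 were called in either region, with medians of 0.04 in the hippocampus and amygdala and 0.08 in the frontal lobe, where the members' medians were -0.45 and -0.32. With CsA against sham the mural median was -0.04 in the hippocampus and amygdala, with 0 called, and 0.21 in the frontal lobe, with 1 called higher. Of the 4 neural markers, 2 were called higher and 1 lower at 1 day in each region, with medians of 0.11 in the hippocampus and amygdala and 0.15 in the frontal lobe. The 4 leukocyte markers summed to between 122 and 196 CPM at 1 day and between 119 and 213 CPM in sham hippocampus and amygdala, with 2 of 4 called higher, and to between 130 and 181 CPM and 109 and 224 CPM in the frontal lobe, with 0 called. Of the 3 erythrocyte markers, 1 was called higher and 0 lower at 1 day in the hippocampus and amygdala (median 0.96), and 0 higher and 1 lower in the frontal lobe, where 2 were tested (median 0.19). At 1 week against 1 day 1 was called lower in the hippocampus and amygdala (median -1.52) and 1 higher in the frontal lobe (median -0.12). Of these markers, miR-451 was at 0 in 13 and miR-144 in 22 of the 105 libraries. miR-486 held most of their counts, with 114908 against 2631 of miR-451 and 821 of miR-144. The median of the 3 summed was 163 CPM at 1 day and 220 CPM in sham hippocampus and amygdala. In the frontal lobe it was 107 CPM at 1 day and 155 CPM in sham animals, and ranges overlapped in both regions. The part of vessel, blood or neural cells in the levels of the members was not tested.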

How the data were processed

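Small RNA was sequenced in 105 libraries of fixed, paraffin-embedded porcine brain from 53 animals by their codes (50 subjects are stated), 52 of them with both regions. RNA was isolated with a Mag-Bind FFPE kit and libraries were made with a QIAseq miRNA kit, per the labels' protocols. Trimmomatic 0.39 and cutadapt 1.9.1 are named, per the submitters' processing notes. The deposited values are read counts per miRNA, which the authors had not normalised. The aligner, the counter, the genome build, the annotation and any counting by molecular identifier were not given in the sources used here. Formalin fixation damages RNA, and intervals cover the spread between libraries only.

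Of 542 entries, 89 were 0 in every library. Entries of the same mature name (457 names) were reduced to the one with the highest total. A further 9 names, with totals of 100 or more, were merged into another name. Their differences from that name's counts, summed over libraries without sign, were under 0.01 of its total. Both steps removed 94 entries and left 448. Libraries of 1 region are taken to be separate animals, and p-values measure the spread between them. Members and lists were chosen with earlier results of these data known. Counts were tested with edgeR 4.0.16 in R 4.3.3 (filterByExpr with minimum count 10 and minimum total 15, TMM, quasi-likelihood test over the 4 groups within a region, Benjamini-Hochberg threshold 0.05), on 290 miRNAs of the hippocampus and amygdala and 284 of the frontal lobe. Regions were compared in 1 fit of 298 miRNAs over animals with both regions, scaled together, with animal as a block. Pairing comes from shared animal codes, and the deviations of the 2 libraries of an animal correlated with a median r of 0.253 over 52 animals, above 0.1 in 39.

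CPM are scaled within a region. Ratios used counts plus 0.5 and 100000 resamples, or exact tests. Named miRNAs are all 8 members, the 3 most alike others of each member, and the 2 with the smallest p of each list for 1 day and CsA against sham. The scripts were tested on simulated data. Alternatives were DESeq2 1.42.0, other scaling, filters, all deposited entries, library total in the fit, sets of animal codes, depth and each library left out. The codes for 1 week against 1 day and the ratios between regions were added after the data had been seen. No sequences of these miRNAs were used here.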

Additional observations from a re-analysis of the deposited data

Results flagged for a closer look

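Of 36 groups of 4 to 10 libraries checked, 1 held a library far from the rest. The log2 ratio of miR-23a over miR-23b in the frontal lobe at 1 day was -2.48 in replicate 3. The nearest of the other 9 libraries was at -2.29 and the highest at -2.08, so this gap took 0.473 of the range of the 10 libraries. By chance about 1 in 20 groups would be marked in this way.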

How the results depend on the processing

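Counts of the 6 tested members called were checked under each alternative. For 1 day against sham, library total in the fit gave 3 in the hippocampus and amygdala (5 in the report) and 0 in the frontal lobe (4), and codes beginning 12 or 13 gave 0 in both regions, while DESeq2 gave 5 and 6 in these regions. For 1 week against 1 day in the frontal lobe (2), DESeq2 gave 4 and library total in the fit 1. Of all miRNAs, these called 38.4% of 318 and 26.1% of 284 in either direction. For the same comparison in the hippocampus and amygdala (4) DESeq2 gave 3, where it called 30.4% of 309 miRNAs in either direction. Codes beginning 11 gave 0 in both regions, as 0 of all miRNAs tested were called. For 1 week against sham, codes beginning 14 to 17 gave 3 in the frontal lobe (0), where miR-27b-3p changed sign, to 0.40. For CsA against sham in the frontal lobe (1), RLE scaling and DESeq2 each gave 2, and library total in the fit and both sets of codes 0. In the hippocampus and amygdala (2), each of RLE scaling, leaving out let-7 and miR-98, no filter on low counts, DESeq2, all deposited entries, libraries under 1000000 counts left out and codes beginning 11 gave 1, and library total in the fit and codes beginning 12 or 13 gave 0. For CsA against sham, DESeq2 called 39.8% of 269 miRNAs in either direction in the frontal lobe and 21.7% of 295 in the hippocampus and amygdala. With codes beginning 11 the shares were 0% of 281 and 8.62% of 290 in these regions. Shares over all miRNAs under other scaling, other filters and left-out libraries are not given here. The cause of these shifts in calls was not tested.

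With 1 library left out at a time, the counts ran from 5 to 6 in the hippocampus and amygdala and from 4 to 6 in the frontal lobe for 1 day against sham, from 2 to 5 and from 2 to 3 for 1 week against 1 day, and from 0 to 2 and from 0 to 3 for CsA against sham. They stayed at 0 for CsA against 1 day and for 1 week against sham. Without the replicate block of animals, 5 in place of 6 members were called between regions at 1 week, with miR-27a at -0.43 (adjusted p = 0.068), and pairing changed no other call of a member. Without animals that had a library under 1000000 counts, 2 region differences of ratios did not pass: miR-27b-5p over miR-27b-3p in sham animals (0.25, exact adjusted p = 0.073), and miR-27a over miR-27b-3p at 1 day, whose animals and value stayed the same while the adjustment over all tests moved (exact adjusted p = 0.051). Of the values of single members other than those leaving out 1 library, 690 kept their direction and side of the threshold, 45 no longer passed it, 14 newly passed it, 1 changed sign with a call in the alternative (miR-27b-3p, above), and 42 either changed sign with no call on either side or had no adjusted p. Depth limits the miR-24 passenger arms most, where a count of 0 was common.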
